A study of Homo sapiens with 8 samples.

Results

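TRPM2 and TSPEAR are neighbouring protein-coding genes on chromosome 21, and this account covers every METTL3 RIP-seq peak that lay whole within the span of either gene. In total, 10 of the 3649 peaks deposited for the prostate cancer lines LNCaP and PC3 met this rule, 6 of 2616 in LNCaP and 4 of 1033 in PC3. TRPM2 held 4 peaks in each line and TSPEAR held 2 peaks in LNCaP and 0 in PC3. The genes were selected on the deposited folds and bounds of these same peaks, so the bounds, folds and overlaps of these peaks are a description and were not tested.

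METTL3 is the enzyme that deposits N6-methyladenosine on messenger RNA, working in a larger complex, and RIP-seq sequences the RNA that an antibody to a protein brings down from a cell lysate. LNCaP is an androgen-sensitive and PC3 an androgen-independent line, each derived from a metastasis of human prostate cancer. LNCaP cells were grown in RPMI-1640 with 20% and PC3 cells with 10% fetal bovine serum, and neither line carried a further treatment in the labels. For each line the labels list 2 anti-METTL3 IP and 2 input libraries, 8 in all, made with a stranded kit, and the data are 1 list of peaks per line. A rabbit IgG control described in the labels was not analysed here. The lists hold no value per library. The folds, p-values and FDRs below are therefore the authors' own for a whole line, without a replicate error and at unknown depth. The header does not say what the fold is relative to, and the design is read as IP over input. The 2 lists were made separately, so folds from LNCaP and PC3 are set side by side and not tested against each other.

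TRPM2 encodes a calcium-permeable cation channel of the plasma membrane that opens on binding ADP-ribose and responds to oxidative stress. The gene is transcribed from the plus strand, and its locus also makes TRPM2-AS, a long non-coding RNA read from the minus strand that has been studied in prostate cancer and other tumours. A short TRPM2 transcript that starts inside the gene, and lacks the first part of the channel, has been described in tumour cells together with TRPM2-AS. TSPEAR encodes a secreted protein with EPTP repeats that is needed in tooth and hair follicle development, and it is transcribed from the minus strand. Genes for keratin-associated proteins of the hair shaft, 16 protein-coding KRTAP10 and KRTAP12 genes in the annotation used, lie inside the TSPEAR span.

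In the RefSeq annotation of GRCh38.p14, TRPM2 spans chr21:44350141-44442644 (92504 bp) and TRPM2-AS spans chr21:44414590-44425563 (10974 bp), so that TRPM2-AS lies whole within TRPM2. RefSeq's promoter table gives TRPM2 a start at 44350141, a second at 44353621 and one inside the gene at 44425650. This inner start lies 87 bp from the start of TRPM2-AS at 44425563, and the transcripts run away from each other from there. The windows from 250 bases before to 50 bases after these paired starts are shown because all plus-strand PC3 peaks lay before them and 2 of the 3 plus-strand LNCaP peaks after them. Both are given 5′ to 3′ in the direction of their own transcript, and capitals mark a GC box (GGGCGG, or CCGCCC on the other strand).
TRPM2 inner start, chr21:44425400-44425699, plus strand: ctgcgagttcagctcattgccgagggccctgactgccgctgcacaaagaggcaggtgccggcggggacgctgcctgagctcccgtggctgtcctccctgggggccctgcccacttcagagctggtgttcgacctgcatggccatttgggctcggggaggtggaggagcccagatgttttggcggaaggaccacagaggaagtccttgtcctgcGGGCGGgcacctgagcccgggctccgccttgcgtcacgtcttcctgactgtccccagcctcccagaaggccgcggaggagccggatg
TRPM2-AS start, chr21:44425514-44425813, minus strand: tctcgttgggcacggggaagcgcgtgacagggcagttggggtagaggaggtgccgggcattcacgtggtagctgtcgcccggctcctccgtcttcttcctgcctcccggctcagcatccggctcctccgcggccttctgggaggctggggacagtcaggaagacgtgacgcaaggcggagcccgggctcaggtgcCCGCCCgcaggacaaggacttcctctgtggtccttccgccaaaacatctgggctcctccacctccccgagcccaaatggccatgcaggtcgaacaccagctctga

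These windows share 186 bases, of which each is the reverse complement of the other, and the capitals in both mark the same GC box. It lies at chr21:44425613-44425618, in the short stretch between the 2 starts. On both strands, 45.0% of the 35116 RefSeq promoter windows of 300 bases hold this motif. Neither window holds CCAAT or TATAAA on either strand, which 34.6% and 11.5% of all windows do. The TRPM2-AS window has 22 CpG dinucleotides and the inner TRPM2 window 19, against a median of 14 over all windows. As few or fewer CpGs were found in 64.2% and 58.8% of all windows, respectively, so neither count is unusual. The window of the first TRPM2 start has 35 CpGs and 2 GC boxes, and that of the second start has 6 CpGs and 0 GC boxes. No listed peak of TRPM2 overlapped any of these windows.

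Minus-strand recovery inside TRPM2 was seen in both lines at one place. The single minus-strand peak, chr21:44416652-44423462 (6811 bp), had the same first and last base in both lists. Its fold was 13.2 in LNCaP (the authors' p = 7.15e-05, FDR = 3.32e-04) and 16.8 in PC3 (p = 3.64e-26, FDR = 4.58e-25). The strand of this peak is opposite to TRPM2 and is that of TRPM2-AS, whose span held it whole. It began 2101 bp after the TRPM2-AS start, ended 2062 bp before its far edge and covered 62.1% of its span. By fold, it ranked number 155 of 2616 in LNCaP and number 29 of 1033 in PC3. By p, the ranks were 563 and 82.

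On the plus strand, that of TRPM2 itself, each line had 3 peaks, of which 1 had the same bounds in both. This shared peak, chr21:44418460-44422349 (3890 bp), lay whole inside the minus-strand peak and covered 57.1% of it. Its fold was 3.49 in LNCaP (the authors' p = 0.0126, FDR = 0.0129) and 19.0 in PC3 (p = 2.61e-21, FDR = 2.25e-20). In LNCaP it stood near the bottom of the list, at rank 2514 of 2616 by fold and 2554 by p, and in PC3 near the top, at rank 22 of 1033 by fold and 120 by p.

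The other plus-strand peaks of TRPM2 lay on different sides of the inner start. In PC3, a peak at chr21:44413994-44418021 (4028 bp) had a fold of 11.0 (the authors' p = 3.69e-09, FDR = 7.74e-09). It ended 438 bp before the shared peak, and 3432 of its bases lay opposite TRPM2-AS. A 76 bp peak at chr21:44423649-44423724 had a fold of 9.62 (the authors' p = 7.02e-07, FDR = 8.77e-07) and began 1299 bp after the shared peak. All 3 plus-strand PC3 peaks thus ended before the inner start, the nearest by 1926 bp, and met the span of TRPM2-AS.

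In LNCaP, 2 of the 3 plus-strand peaks began after the inner start and lay outside TRPM2-AS. The longer, chr21:44427103-44435172 (8070 bp), began 1453 bp after that start and had a fold of 4.44 (the authors' p = 3.71e-05, FDR = 2.00e-04). The other, chr21:44437066-44437141, spanned 76 bp near the end of the gene. It had the highest fold of the LNCaP peaks in TRPM2, 17.5 (the authors' p = 2.19e-07, FDR = 3.00e-06; rank 93 of 2616 by fold and 191 by p). A predicted small nucleolar RNA gene, LOC124905069 (chr21:44437121-44437181), shares 21 bases with this short peak, and its strand is not given in the table used. No PC3 peak lay on either stretch.

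Together the plus-strand peaks covered 12036 bp of TRPM2 in LNCaP and 7994 bp in PC3, and 3890 bp of each were the shared peak. All peaks lay in the last part of the gene: the earliest, in PC3, began 63853 bp after the first start, and the nearest LNCaP peak began 66511 bp after it. Exons and introns were not used here, so how much of a peak is exonic was not measured.

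**Figure D1:**
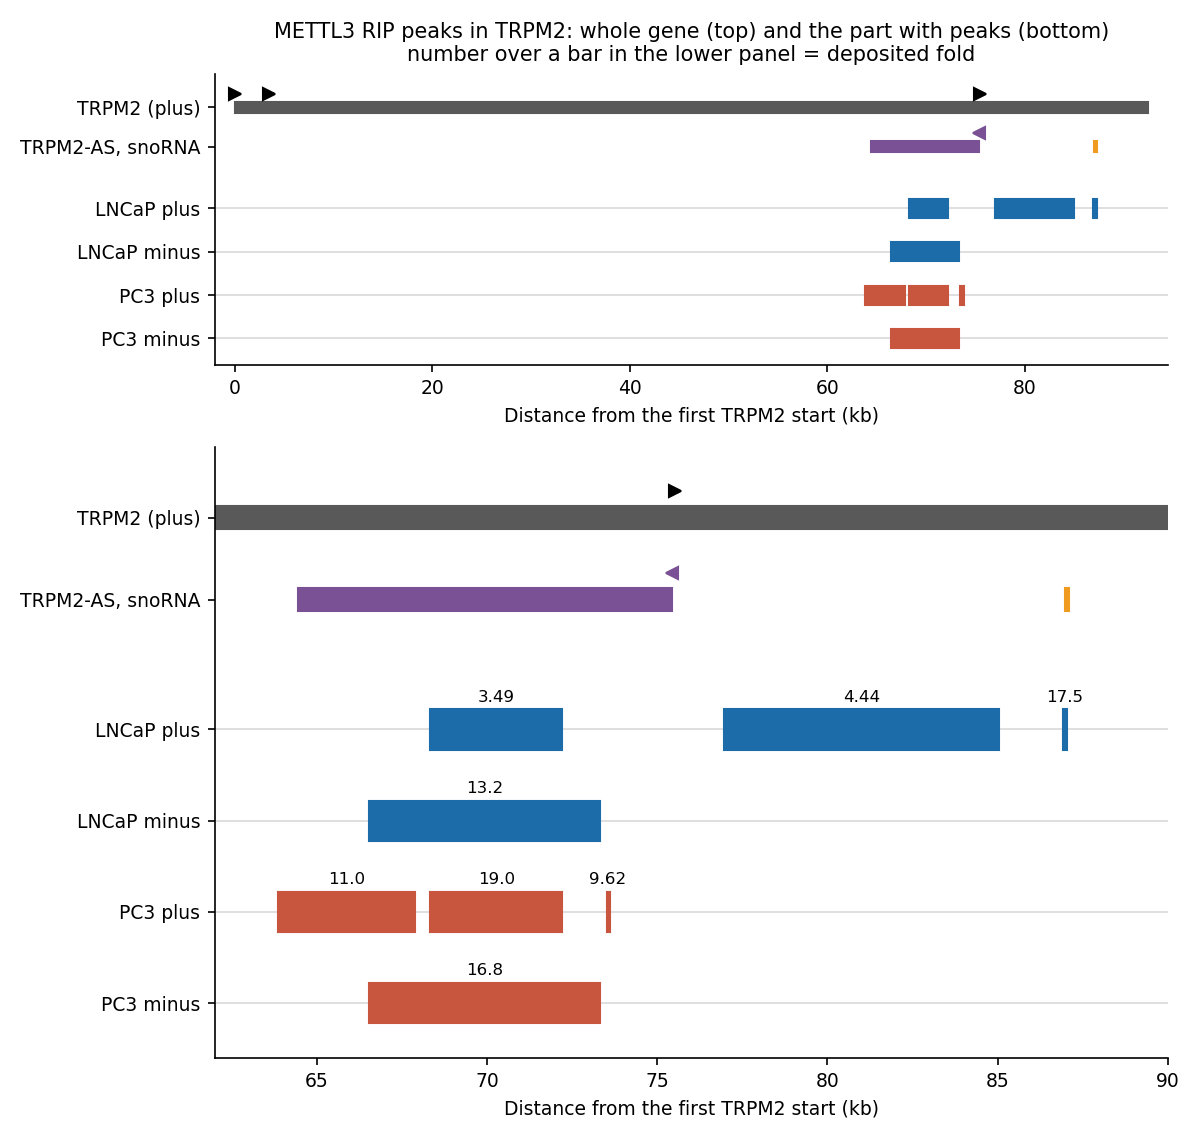
Peaks in TRPM2 by line and strand against the distance from its first start in kb, for the whole gene (top) and the part with peaks (bottom, with the deposited fold over each bar). Right-pointing triangles are TRPM2 starts, the left-pointing triangle is the TRPM2-AS start, the purple bar is TRPM2-AS and the orange bar the snoRNA gene; the 76 bp peaks and the snoRNA gene are drawn wider than scale. The minus-strand bars are the same in both lines, and all PC3 plus-strand bars end before the inner start, while 2 of the 3 LNCaP bars begin after it.

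Peaks with overlapping spans on opposite strands were uncommon in the lists as a whole. Spans run from first to last base, introns included. An overlap of spans therefore does not show that RNA of both strands was recovered from the same bases. In LNCaP, 5.47% of all peaks met a peak on the other strand of the same list (143 of 2616, 95% Wilson interval 4.66 to 6.40%), as did 4 of the 6 peaks described here. In PC3, the share was 7.94% (82 of 1033, 6.44 to 9.75%), and 3 of the 4 TRPM2 peaks did so. The intervals cover counting error only. Nothing is read from the members' counts, since both genes were chosen with these peaks known.

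Peaks on the strand opposite to the gene were also few, counted over a different base from the shares above. Among the 2048 LNCaP peaks held whole by exactly 1 protein-coding gene with a known strand, 2.54% (52) lay on the opposite strand. No promoter of TSPEAR is used here, so its plus-strand peak is not among the 52. The TRPM2 peak had the number 4 fold among those 52, whose median fold was 5.71. Of the 52, at least 28 lay whole within another annotated gene of their own strand, as the TRPM2 peak did. Genes whose strand was not known could not be counted for this. In PC3 the strand was known for the gene of 793 of 998 such peaks, under the 80% required, so no share is given.

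Folds of plus and minus peaks with overlapping spans can be compared within a list. In PC3, 50 pairs of a plus and an overlapping minus peak were found, and the TRPM2 pair with folds of 19.0 and 16.8 had the highest lower fold of all. LMLN followed with a lower fold of 15.6 and SPTBN1, a spectrin of the membrane skeleton, with 11.9, and the median over the 50 pairs was 4.12. A peak forms a pair with each peak it overlaps, so the same peak can recur. Ranks and medians thus count pairs and not separate places. A second TRPM2 pair, the 4028 bp plus-strand peak with the minus-strand peak, stood at rank 6 with a lower fold of 11.0 and shared 1370 bp. In LNCaP the TRPM2 pair was uneven, with 3.49 for the plus-strand and 13.2 for the minus-strand peak. Its lower fold stood at rank 80 of 83 pairs, where the median was 4.38. The minus strand thus had the higher fold in the LNCaP pair. In PC3 the plus strand did in the pair with shared bounds (19.0 against 16.8), and the minus strand did in the second pair (16.8 against 11.0).

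**Figure D2:**
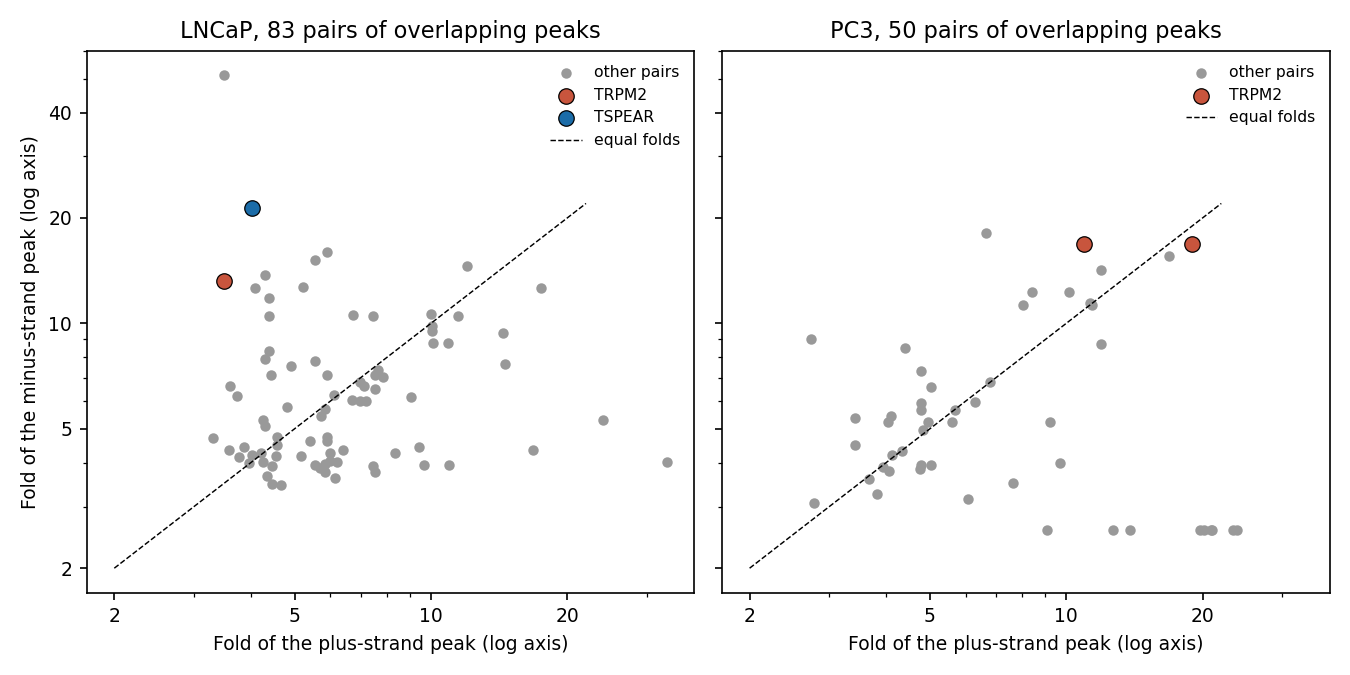
Fold of the minus-strand peak against fold of the overlapping plus-strand peak for 83 LNCaP and 50 PC3 pairs, on log axes, with TRPM2 in red, TSPEAR in blue and the dashed line at equal folds. The LNCaP pairs of both genes lie far above the line, and the PC3 pair of TRPM2 at 19.0 and 16.8 lies close to it, while its second PC3 pair, at 11.0 and 16.8, lies above it.

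The same bounds in both lists were also rare. They were found for 44 peaks, 1.68% of the LNCaP list and 4.26% of the PC3 list, and 2 of these 44 were the TRPM2 peaks. A looser measure, an overlap of 1 bp or more without a change of strand, held for 21.3% of LNCaP and 44.4% of PC3 peaks. By that measure 2 of the 6 LNCaP and 2 of the 4 PC3 peaks described here were shared, and these were the identically bounded ones. Of the 44, 1 peak (2.27%) had a fold of at least 10 in both lists, the minus-strand TRPM2 peak. The next by lower fold was a peak on KMT2D, a histone methyltransferase gene, with 11.4 in LNCaP and 9.52 in PC3.

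The plus-strand TRPM2 peak stood at one end of these 44 pairs. Its log2 ratio of the PC3 over the LNCaP fold was 2.44, the highest of all, followed by 1.35 for a peak on MPRIP, which encodes a myosin phosphatase partner. For the minus-strand TRPM2 peak the log2 ratio was 0.35, at rank 11. The median log2 ratio over the 44 was -0.11, with the PC3 fold the higher in 20 and the LNCaP fold in 24. Only 2 places had identically bounded peaks on both strands, TRPM2 and a place on chromosome 5. The latter held a plus-strand peak (chr5:141618413-141625945) with folds of 3.58 in LNCaP and 4.40 in PC3, and a minus-strand peak (chr5:141618881-141619055) with 4.35 and 8.48.

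**Figure D3:**
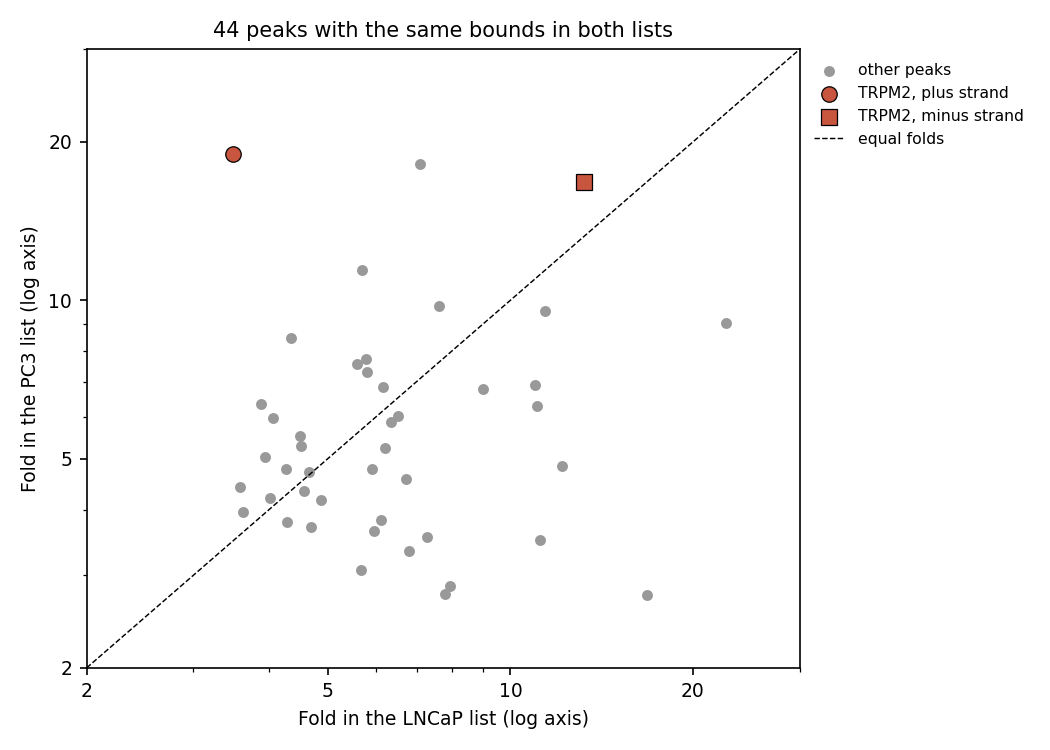
Fold in PC3 against fold in LNCaP for the 44 peaks with the same bounds and strand in both lists, on log axes, with the 2 TRPM2 peaks in red and the dashed line at equal folds. The minus-strand TRPM2 peak (13.2 and 16.8) is the one peak above 10 on both axes, and the plus-strand peak (3.49 and 19.0) is the farthest above the line.

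TSPEAR was represented in LNCaP by a pair of peaks on opposite strands with overlapping spans. TSPEAR spans chr21:44497893-44711572 (213680 bp), begins 55248 bp beyond the end of TRPM2 and, being read from the minus strand, starts at its right edge. The peak on the strand of the gene, chr21:44522017-44525732 (3716 bp, minus), had a fold of 21.3 (the authors' p = 4.36e-16, FDR = 6.34e-14). This was the strongest of all peaks described here in LNCaP, at rank 18 of 2616 by p and 59 by fold. Its midpoint lay 87.8% of the way along the gene in the direction of transcription.

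The plus-strand peak, chr21:44520733-44525901 (5169 bp), held the minus-strand peak whole, which covered 71.9% of it. Its fold was 4.02 (the authors' p = 4.58e-05, FDR = 2.34e-04), at rank 2146 of 2616 by fold and 512 by p. The lower fold of this pair stood at rank 60 of the 83 LNCaP pairs. Within TSPEAR, RefSeq places 3 long non-coding RNA genes on the plus strand near these peaks, and none of them met the plus-strand peak. TSPEAR-AS1 spans chr21:44506044-44516575. TSPEAR-AS2 (chr21:44517215-44518977) ended 1756 bp before the peak, and LOC124905038 (chr21:44527509-44533182) began 1608 bp after it. TSPEAR is the 1 gene of the table whose span met this peak. At TSPEAR the higher fold was thus on the strand of the protein-coding gene, whereas in LNCaP at the paired TRPM2 peaks it was on the strand of the antisense RNA.

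**Figure D4:**
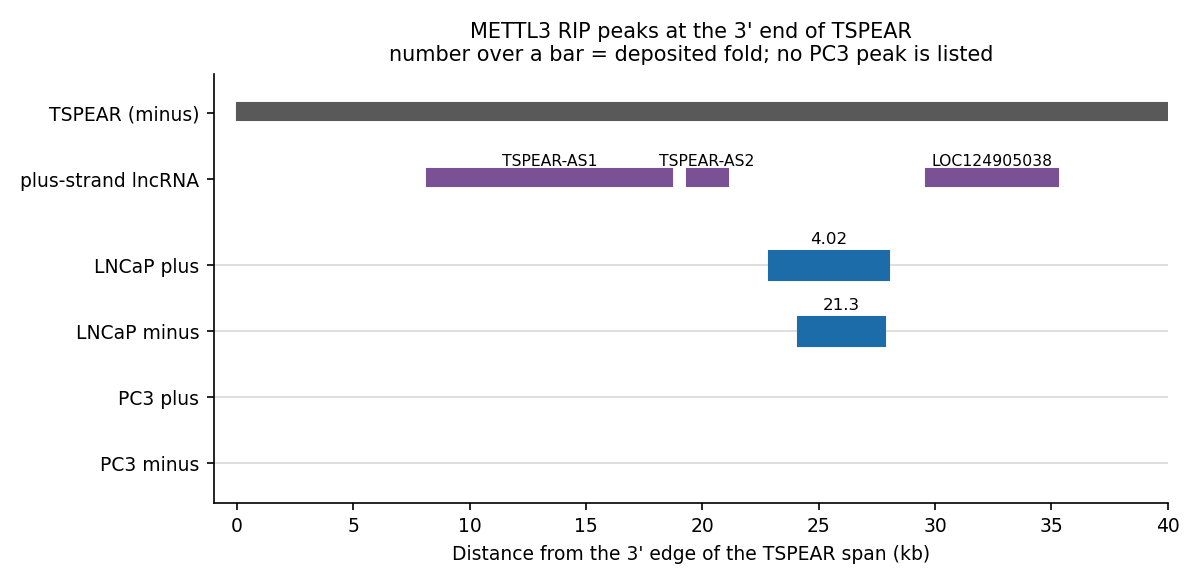
Peaks at the 3' end of TSPEAR by line and strand against the distance from the 3' edge of its span in kb, with the deposited fold over each bar, the gene in grey and plus-strand lncRNA genes in purple. The LNCaP peaks (plus strand 4.02, minus strand 21.3) overlap each other, lie between TSPEAR-AS2 and LOC124905038 and have no PC3 counterpart.

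The absence of TSPEAR from the PC3 list has to be read with the p-values that each list holds. The largest p was 0.0178 in LNCaP and 1.59e-05 in PC3. If LNCaP is limited to p-values up to that PC3 maximum, the minus-strand TSPEAR peak and the 76 bp TRPM2 peak are the 2 LNCaP peaks left of the 6. The minus-strand TSPEAR p of 4.36e-16 was thus well within the range that the PC3 list holds, and the plus-strand p of 4.58e-05 was not. At TRPM2, both peaks shared with PC3 had LNCaP p-values, 7.15e-05 and 0.0126, above the largest in the PC3 list. The cutoff behind each list is not known, and p-values of separately made lists need not be on one scale. A peak list gives no RNA level, and depth and the peak calling are unknown. Less TSPEAR RNA in PC3, less recovery of that RNA, and a difference in depth or peak calling therefore cannot be told apart.

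**Figure D5:**
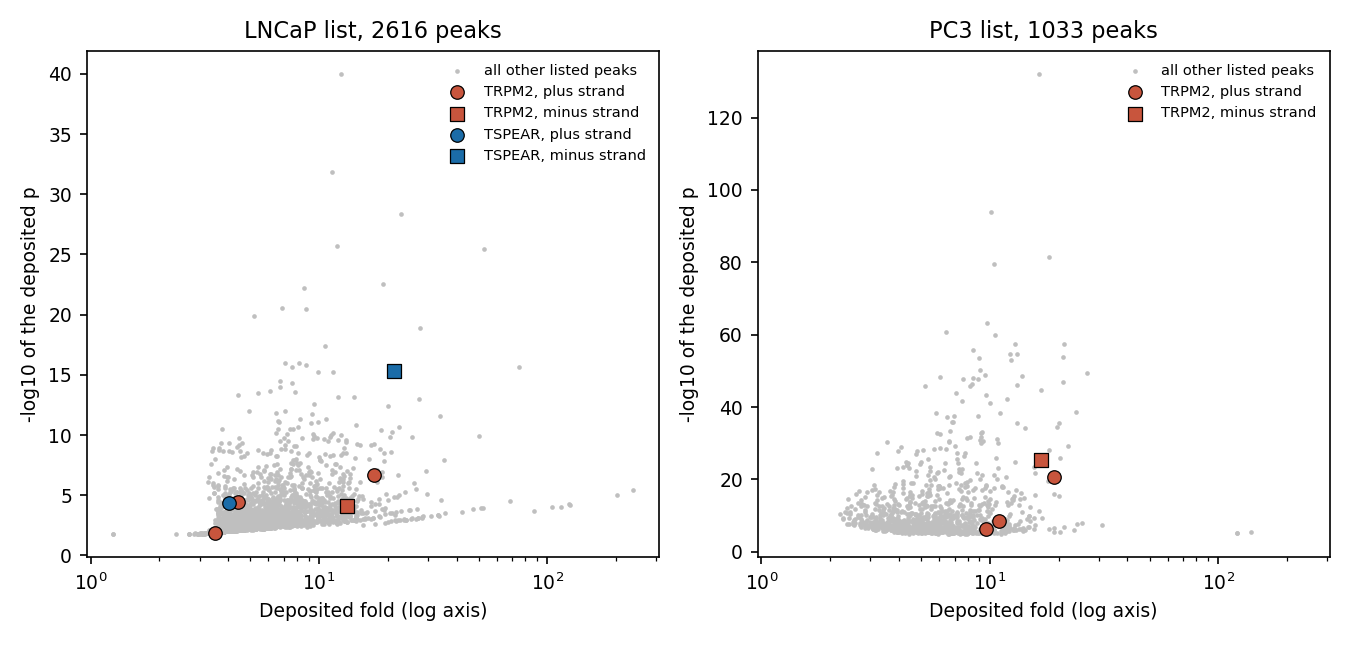
The negative log10 of the deposited p against the deposited fold (log axis) for all 2616 LNCaP and 1033 PC3 peaks, with TRPM2 in red, TSPEAR in blue, circles for the plus and squares for the minus strand. The p axes differ between the panels. The minus-strand TSPEAR peak (fold 21.3) lies above most peaks of the LNCaP panel. The shared plus-strand TRPM2 peak lies at the lower left in LNCaP (3.49) and at a higher fold in the PC3 panel (19.0).

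No peak lay between the 2 genes in either list. The closest LNCaP peak outside them was on PFKL, the liver-type phosphofructokinase gene (chr21:44324641-44325201, plus strand, fold 9.96), 24940 bp before TRPM2. The closest PC3 peak, on RRP1B (chr21:43688107-43690304, plus strand, fold 7.33), was 659837 bp away. Beyond TSPEAR, the next peak was 786945 bp away in LNCaP and 814309 bp away in PC3. In PC3, the 4 TRPM2 peaks were among 21 on chromosome 21, and in LNCaP the 6 peaks of both genes were among 54.

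Related genes were looked up in both lists. Of the 8 TRPM channel genes, TRPM2 alone held a peak in LNCaP and in PC3, and the other 7, such as TRPM8, the cold-sensing channel first found in prostate, and TRPM7, a channel with a kinase domain, held 0. Of 6 genes with EPTP repeats, TSPEAR held peaks in LNCaP, and the 4 LGI genes and ADGRV1 held 0 in both lines. For comparison, 5.41% of 19974 protein-coding genes held a peak in LNCaP and 1.79% in PC3, so counts of 0 in lists this short are near the background and say nothing particular to TRPM2 or TSPEAR.

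Of 33 neighbouring genes at this end of chromosome 21, 16 of them KRTAP genes inside TSPEAR, 5 held a peak in LNCaP and 2 in PC3. The shares over all protein-coding genes were 5.41% in LNCaP and 1.79% in PC3, and the counts were not tested. The LNCaP genes were TRAPPC10 with a fold of 5.12, PFKL with 2 peaks of 5.96 and 9.96, COL6A1 with 4 peaks from 4.24 to 8.91, COL6A2 with 3 peaks from 4.83 to 202.6 and PCNT with 9 peaks from 3.16 to 15.5. Apart from the COL6A2 peak with a fold of 202.6, these LNCaP peaks had FDRs of 6.94e-04 or more. Their p-values were above the largest in the PC3 list. COL6A1 and COL6A2 encode chains of collagen VI, and PCNT encodes a scaffold protein of the centrosome. In PC3 they were COL6A1 with 2 peaks of 3.42 and 3.03 and COL6A2 with 3 peaks from 2.82 to 3.17. All of these peaks were on the plus strand, so among the neighbours listed here none had the pairing of strands seen in TRPM2 and TSPEAR. Over all peaks, only 5.47% in LNCaP and 7.94% in PC3 met a peak on the other strand. Its absence from so few peaks is near that background and says nothing particular to TRPM2 or TSPEAR. The 16 KRTAP genes inside TSPEAR held 0 peaks in either list. Any peak in them would also lie within TSPEAR, whose peaks met no other gene, so this 0 adds nothing and only enlarges the base of 33.

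A peak list gives no expression levels, so the cell lines could be set against marker genes only by the presence of peaks. TMPRSS2, an androgen-regulated protease, had 1 peak in LNCaP with a fold of 3.29 (the authors' FDR = 0.0125) and 0 in PC3. At that FDR, its p was above the largest in the PC3 list. KLK3 and KLK2, kallikreins of the prostate, had 0 peaks in both.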

How the data were processed

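RNA from METTL3 IP and input of LNCaP and PC3 cells was sequenced in 2 replicates per group. Per the submitters' processing notes, fastp, STAR 2.5.3a, bedtools, deepTools and hg38 were used. The peak caller, its settings and the treatment of replicates are not given in the sources used here. Per the file headers, each deposited list gives a linear fold, p-value, FDR and score per peak, of which the score was not used further. The deposited FDR equalled a Benjamini-Hochberg adjustment over the listed peaks for all 2616 LNCaP and 1033 PC3 peaks, each within a relative difference of 1e-06, so regions tested and not listed do not enter it. The span in bp is from first to last base, introns included.

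Peaks whole within the RefSeq (GRCh38.p14) spans of TRPM2 or TSPEAR were taken. Overlap means at least 1 bp. Strands of genes came from RefSeq's promoter table, matched by gene ID, and that of TSPEAR, for which no promoter is used here, from general knowledge. Named genes were every gene with a peak among fixed lists of TRPM channels, EPTP genes, neighbours and markers, genes with identically bounded peaks of fold 10 or more in both lists, and, chosen after their values were seen, the runners-up KMT2D, MPRIP, LMLN and SPTBN1, RRP1B and the place on chromosome 5. The marker list was longer, and its other genes are not reported here. Members and lists were chosen with earlier results of these data known. Overlap code (Python 3.11.15, pandas 2.3.3) was tested on simulated intervals. Depth per library is unknown.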

Additional observations from a re-analysis of the deposited data

How the results depend on the processing

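No paired analysis was possible because the lists hold no values per replicate, and leaving out a replicate was not run for the same reason. Of 36 alternative values, 29 stayed within 1.5 times the count, or within the 95% interval of a share, and 7 moved. With LNCaP limited to p-values up to the PC3 maximum, TRPM2 kept 1 of its LNCaP peaks and TSPEAR 1. Under that setting, added after the data had been seen for overlaps, 0 described peaks were shared in LNCaP and 0 in PC3, and 0 of the LNCaP peaks met one on the other strand, since fewer LNCaP peaks enter. With peaks inside exactly 1 protein-coding gene, the share of all peaks that meet a peak on the other strand was 4.10% in LNCaP and 5.81% in PC3. A minimum fold of 4 or an FDR of at most 0.01 left out the shared plus-strand TRPM2 peak from LNCaP and left 3 there. The log2 ratio of 2.44, the LNCaP pair of TRPM2 and its identically bounded peaks on both strands all rest on that peak. Sharing and strand overlap of the described peaks were not rerun under these settings. With either strand allowed, 3 PC3 peaks met a LNCaP peak. Unknown depth limits what absence from a list can show.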
